A study of Mus musculus with 131 samples.

Results

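The DNA methylation of cultured Actin-RFP embryonic stem cells (ESCs) at passage 10 was compared with that of Gjb2 35delG ESCs at passage 7, window by window. The genome was tiled into windows of 200 bp, and a window was used where both libraries had at least 1 covered CpG position. This held for 7513496 autosomal windows, out of 13627618 windows in each table and 12313737 on the autosomes. The Gjb2-35delG library covered 7815189 autosomal windows and the Actin-RFP library 7758989.

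Both lines are of strain C57BL/6J. The Gjb2 35delG line carries the 35delG deletion of Gjb2, which encodes a gap junction protein of the inner ear, and the Actin-RFP line carries a red fluorescent transgene driven by an actin promoter. A further bisulfite library, from wild-type mouse embryonic fibroblasts (MEF) at passage 2, served as a reference for levels in differentiated cells. The study injected ESCs into diploid host embryos and also profiled single cells of E4.0 blastocysts, whose RFP cells are used here only to rank genes by expression. Line, genotype and passage differ together, so their contributions cannot be told apart, and the culture conditions, the number of copies of Gjb2 that carry the deletion and whether each line is a single clone were not known here. The passages are the p numbers of the sample titles, and the Actin-RFP line is titled Actin-RFP2. There was 1 library per line, so no difference below has a replicate check and none was tested. The errors given are counting errors from the number of bisulfite calls.

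DNA methylation in mammals is added to cytosines that precede a guanine (CpG). DNMT3A and DNMT3B add it to unmodified DNA, DNMT1 with its partner UHRF1 copies it after replication, and TET enzymes oxidise it. Most of the genome is methylated in differentiated cells while CpG islands at gene starts are not, and mouse ESCs are known to lose methylation across the genome in some culture conditions. Bisulfite sequencing reads methylated and hydroxymethylated cytosine alike.

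The mean level of the shared windows was 67.5% in Gjb2-35delG and 38.5% in Actin-RFP ESCs, a difference of -29.1 points. Actin-RFP ESCs thus held 57.0% of the Gjb2-35delG level, a quantity called the remaining share below and defined as the mean Actin-RFP level divided by the mean Gjb2-35delG level of the same windows. The median window moved from 71.6% to 38.5%. Windows above 80% made up 28.7% of the shared windows in Gjb2-35delG and 1.93% in Actin-RFP, and windows from 20% to 60% made up 21.5% and 66.8%. The Actin-RFP library thus had few windows near full methylation and a broad distribution around intermediate levels.

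**Figure D1:**
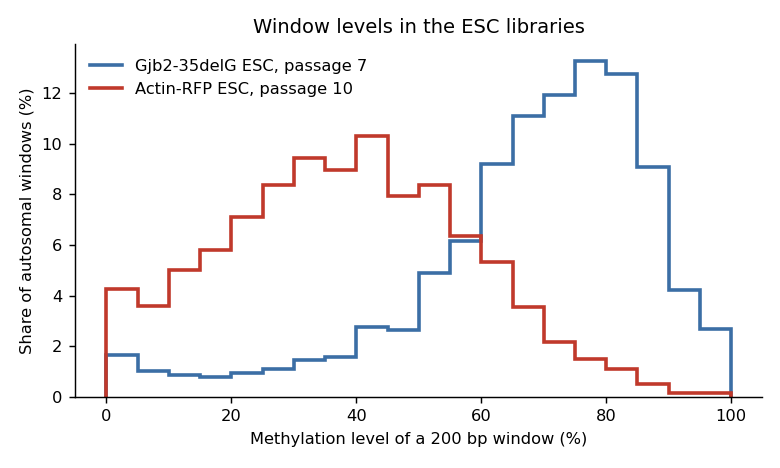
Distribution of window methylation levels (horizontal axis, percent) as the share of the shared autosomal windows (vertical axis, percent) in the Gjb2-35delG and Actin-RFP libraries, in steps of 5 points. The Gjb2-35delG library peaks at 75% to 80%, with 13.3% of windows in that step, and the Actin-RFP library at 40% to 45%, with 10.3%.

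The loss reached nearly the whole genome. Of the shared windows 94.4% were lower in Actin-RFP and 5.20% higher. A difference of at least 30 points downward was seen in 3616236 windows, which is 48.1% of those compared, and of at least 30 points upward in 10273, or 0.137%. The windows at least 30 points higher had a median of 10 and 11 calls in the Gjb2-35delG and Actin-RFP libraries, against 27 and 29 calls over all shared windows. Of them 75.7% had only 1 or 2 covered positions, compared with 42.2% of all windows, and 3.93% adjoined another such window. Where both libraries had at least 20 calls the upward share was 0.0167%. The difference had a standard deviation of 18.03 points over windows, and the binomial error of the calls gave 13.5 points of it, which leaves 11.9 points beyond counting. Of the variance of the difference, counting accounted for 56.3%, the means of starting-level bins for 22.5%, of 200 kb bins for 8.70%, of 1 Mb bins for 6.20%, of classes of CpG count for 2.67% and of promoters, gene bodies and intergenic windows for 1.75%. These shares overlap and the bins of starting level hold counting error too.

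A smaller set of windows departed far from the average. Of 3299576 windows with at least 20 calls in both libraries and a Gjb2-35delG level of 60% or more, 154988 (4.70%) kept at least 90% of it, going from a mean of 75.3% to 73.4%, with MEF at 88.3%. Another 201965 (6.12%) kept under 30%, going from 73.0% to 16.4%. Of the former 13.5% adjoined another window of the same kind, and of the latter 9.68%. Both sets were chosen by the difference itself, so these levels are a description.

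Both libraries had low methylation at most promoters of pluripotency genes. A promoter is taken here as 1000 bp upstream to 500 bp downstream of a gene start, and its errors are counting SEs. For the level of a single gene the outermost annotated start on its strand was used, which need not be the one active in ESCs. At Zfp42 (Rex1, a marker of naive pluripotency) the level was 3.27% ± 0.940 in Gjb2-35delG, 3.70% ± 1.65 in Actin-RFP and 72.4% in MEF. At Dppa5a, another pluripotency marker, it was 3.94%, 3.05% and 86.9%. At Tcl1, a cofactor of ESC self-renewal, it was 8.21%, 5.005% and 85.9%. These promoters were methylated in MEF and low in both ESC libraries, and they are among the members with the highest MEF levels. Other members, among them Sox2, Klf4, Lin28a, Tbx3 and Klf2, were low in MEF too and show no such contrast. The exceptions in the list were Esrrb, an orphan nuclear receptor of naive pluripotency (70.1% in Gjb2-35delG, 31.7% in Actin-RFP and 49.5% in MEF), Nr5a2, a related receptor (66.1%, 45.1% and 73.8%) and Dppa4, a chromatin protein of pluripotent cells (67.98%, 41.4% and 86.8%). The annotation used here gives no strand for Dppa4, so its start was taken as the gene end with more covered positions. The whole list of 21 pluripotency promoters had a median of 4.72% in Gjb2-35delG, 3.80% in Actin-RFP and 42.5% in MEF.

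Fibroblast genes lay the other way, with a median over 17 promoters of 38.6% in Gjb2-35delG, 22.2% in Actin-RFP and 13.8% in MEF. Actin-RFP was lower at 15 of the 17 and higher at 2. Postn, a matrix protein of fibroblasts, was at 76.8% ± 2.28 and 43.1% ± 2.39, against 30.9% in MEF. The share of feeder fibroblasts in either culture was not tested beyond the pluripotency promoters above.

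The sequences below show what the loss meant at individual gene starts. They are the 250 bases upstream of the start, from RefSeq (GRCm38.p6), written 5′ to 3′ on the strand of the gene with CpG dinucleotides in capitals. They were picked after their values were seen to show a promoter that kept its level, germline and imprinted promoters that fell by different amounts, and an olfactory receptor promoter with a single CpG. Each has 1 window with a level in both libraries whose centre lies in the printed bases.

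Klk11: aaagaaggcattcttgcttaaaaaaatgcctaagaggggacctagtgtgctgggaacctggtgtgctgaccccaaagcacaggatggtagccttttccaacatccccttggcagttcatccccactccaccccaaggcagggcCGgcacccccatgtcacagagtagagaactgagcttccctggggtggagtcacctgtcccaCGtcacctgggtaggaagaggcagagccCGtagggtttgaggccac
Tex101: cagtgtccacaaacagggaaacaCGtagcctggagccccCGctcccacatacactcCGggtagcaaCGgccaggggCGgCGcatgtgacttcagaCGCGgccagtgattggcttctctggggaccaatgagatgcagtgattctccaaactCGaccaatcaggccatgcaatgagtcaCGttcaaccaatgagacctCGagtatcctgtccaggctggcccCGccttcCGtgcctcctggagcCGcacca
Dazl: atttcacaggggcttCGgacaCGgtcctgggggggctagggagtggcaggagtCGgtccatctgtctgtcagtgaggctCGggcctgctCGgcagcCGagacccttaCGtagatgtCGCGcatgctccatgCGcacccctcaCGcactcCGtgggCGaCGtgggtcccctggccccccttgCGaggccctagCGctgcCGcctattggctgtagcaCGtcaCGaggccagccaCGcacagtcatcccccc
Rpl10l: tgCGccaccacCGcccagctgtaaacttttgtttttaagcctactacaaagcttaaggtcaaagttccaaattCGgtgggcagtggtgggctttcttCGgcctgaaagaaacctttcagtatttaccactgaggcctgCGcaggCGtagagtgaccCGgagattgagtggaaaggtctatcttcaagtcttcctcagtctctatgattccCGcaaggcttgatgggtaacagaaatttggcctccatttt
Nnat: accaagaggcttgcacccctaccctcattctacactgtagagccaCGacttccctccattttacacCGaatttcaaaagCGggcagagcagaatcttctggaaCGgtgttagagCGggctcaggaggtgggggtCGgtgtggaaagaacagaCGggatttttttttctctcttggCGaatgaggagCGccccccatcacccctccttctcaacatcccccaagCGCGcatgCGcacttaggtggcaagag
Airn: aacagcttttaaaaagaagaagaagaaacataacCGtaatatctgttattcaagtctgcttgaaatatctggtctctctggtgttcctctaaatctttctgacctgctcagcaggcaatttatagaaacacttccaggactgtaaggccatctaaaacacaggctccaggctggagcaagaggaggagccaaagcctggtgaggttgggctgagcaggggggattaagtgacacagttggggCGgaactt
Olfr1228: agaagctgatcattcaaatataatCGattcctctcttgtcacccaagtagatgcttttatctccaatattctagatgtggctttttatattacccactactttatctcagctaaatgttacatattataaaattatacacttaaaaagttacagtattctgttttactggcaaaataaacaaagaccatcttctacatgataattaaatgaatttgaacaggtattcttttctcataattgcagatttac

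Klk11, a kallikrein protease, has 3 CpGs in these bases (chr7:43774367-43774616), and its window was at 44.9% in Gjb2-35delG and 44.7% in Actin-RFP, over 20 and 42 calls. Of the 32851 promoters that RefSeq lists, 37.8% hold 3 CpGs or fewer in the same 250 bases. Tex101, a germ cell surface protein, has 14 (chr7:24672051-24672300) and went from 55.4% to 47.1%. Dazl, an RNA-binding protein of germ cells, has 20 (chr17:50293621-50293870), more than or as many as 83.7% of promoters, and its window went from 70.3% (57 calls) to 40.1% (202 calls). Rpl10l, a ribosomal protein gene copy used in the testis, has 8 (chr12:66284402-66284651) and went from 72.8% (93 calls) to 14.8% (81 calls). The windows of Dazl and Rpl10l, of similar starting level, thus ended far apart.

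Nnat, a paternally expressed imprinted gene, has 12 CpGs (chr2:157559828-157560077) and went from 50.5% (117 calls) to 9.63% (149 calls). Airn, the imprinted antisense RNA of the Igf2r locus, has 2 (chr17:12741061-12741310) and went from 61.6% to 34.5%. Olfr1228, an olfactory receptor, has a single CpG (chr2:89249693-89249942), and its window went from 72.3% (21 calls) to 7.78% (32 calls). Only 18.8% of promoters hold as few. With 1 window each, these values carry the wide counting error of 20 to 202 calls.

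By starting level, the loss in points grew with the level that was there to lose, and then levelled off. Windows were first binned by their own Gjb2-35delG level. At 30% to 40% they changed by -15.6 points, at 50% to 60% by -25.4 points and at 80% to 90% by -35.2 points. The remaining share in these bins was 55.8%, 53.98% and 58.2%. Windows at 0% to 10% were higher in Actin-RFP, 5.62% against 3.95%. Binning by a noisy value that is also part of the difference pulls both ends toward the mean, so windows were also binned by the average of the adjoining windows and by MEF.

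Binned by the adjoining windows, the lowest bin went from 5.87% to 4.82%, a remaining share of 82.1%. In the 4 bins whose own Gjb2-35delG means were 27.1%, 40.7%, 53.5% and 63.0%, the share was nearly level at 57.0%, 54.7%, 54.6% and 55.7%. In the bins with means of 68.9%, 73.5%, 77.6% and 81.3% it rose, to 57.6%, 59.7%, 62.0% and 64.3%. The points lost in those 4 bins were nearly the same, with differences of -29.2, -29.6, -29.5 and -29.0. Neither a constant share nor a constant number of points described the whole range. A constant share came closer in the middle of it and a constant number of points at the top.

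MEF shares no calls with either ESC library. Binned by MEF, the remaining share was 60.8% in windows at 0% to 10% in MEF, 48.9% at 50% to 60% and 62.3% at 90% to 100%. The last bin held 2346647 windows and went from 74.2% to 46.2%. Windows of intermediate level in fibroblasts thus kept the smallest share, and windows fully methylated in fibroblasts the largest of the 10 bins.

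**Figure D2:**
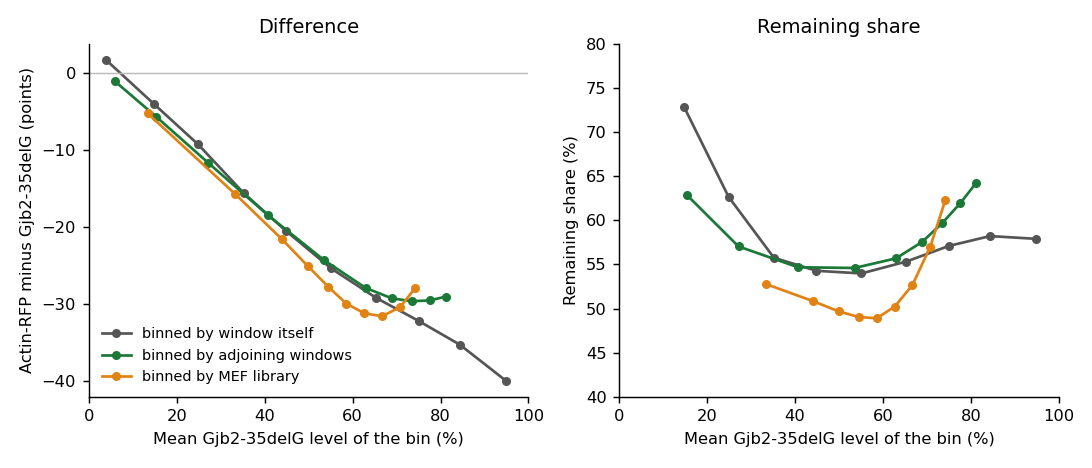
Difference (left, Actin-RFP minus Gjb2-35delG in points) and remaining share (right, percent) against the mean Gjb2-35delG level of bins of 10 points, with windows binned by their own level, by the adjoining windows or by MEF. The own-level curve keeps falling to -39.9 points, the adjoining-window curve levels off near -29.0 points, and the MEF curve has its lowest share at 48.9%. The right panel leaves out the lowest bin.

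CpG count is given here as covered CpG positions, where each CpG counts once per strand. In windows that lie within promoter sequences the median count was 2 positions with 1 CpG and 4 with 2 CpGs in both libraries. The remaining share rose with the count, from 53.8% with 1 position and 53.9% with 2 positions to 57.3% with 3 to 4, 59.8% with 5 to 6, 61.5% with 7 to 8 and 62.4% with 9 to 10. It was then nearly level at 62.9% with 11 to 14, 63.1% with 15 to 19 and 63.7% with 20 to 29 positions. Windows with 30 or more positions started at 8.72% and ended at 6.16%, a share of 70.7%.

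With the start held in a band the top end turned. Among windows whose adjoining windows averaged 60% to 80%, the share rose from 56.0% with 1 position to 62.0% with 9 to 10, then fell to 60.8% with 15 to 19, 58.8% with 20 to 29 and 56.4% with 30 or more. The last class held 286 windows, which went from 72.4% to 40.9%. Within this band, windows of 30 or more positions thus kept a share close to that of windows with 1 position. Dense windows were covered less fully in the Gjb2-35delG library. Windows of 15 positions or more had a median of 16 against 18 positions and 128 against 167 calls. In promoter sequences with 20 CpGs the gap was wider, as given above. Windows of 10 or more positions kept 62.5% where both libraries had the same count and 62.7% in all.

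The remaining share varied more with the density of the surroundings than with the count of the window itself, leaving aside windows of 30 or more positions. Windows were ranked by the covered positions in the 10 windows on each side, 4 kb in all without the window itself. From the sparsest to the densest quintile, with medians of 25, 40, 56, 75 and 108 positions, the remaining share was 46.7%, 53.5%, 58.9%, 62.1% and 63.7%. The Gjb2-35delG levels of these quintiles were 67.7%, 69.7%, 69.9%, 68.9% and 61.8%. The Actin-RFP levels were 31.6%, 37.3%, 41.1%, 42.7% and 39.3%. Over the first 4 quintiles the Gjb2-35delG level thus barely moved while the Actin-RFP level climbed.

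For windows with exactly 2 positions the share ran from 45.1% in the sparsest surroundings to 63.4% in the densest. Windows with 9 to 10 positions ran from 56.4% to 63.7%. In the sparsest surroundings the share went on rising with the count, from 46.3% with 1 position to 64.4% with 15 to 19 (1856 windows, 71.8% to 46.2%) and 66.8% with 20 to 29 (710 windows), so the turn seen in the band above was not seen there. In the second quintile it was 52.1% with 1 position and 65.8% with 15 to 19. The count of the window itself thus made little difference in the densest surroundings and a large one in the sparsest. A count of covered positions falls both where CpGs are few and where reads cannot be placed, so sparse CpGs and poor mapping cannot be told apart in this measure.

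**Figure D3:**
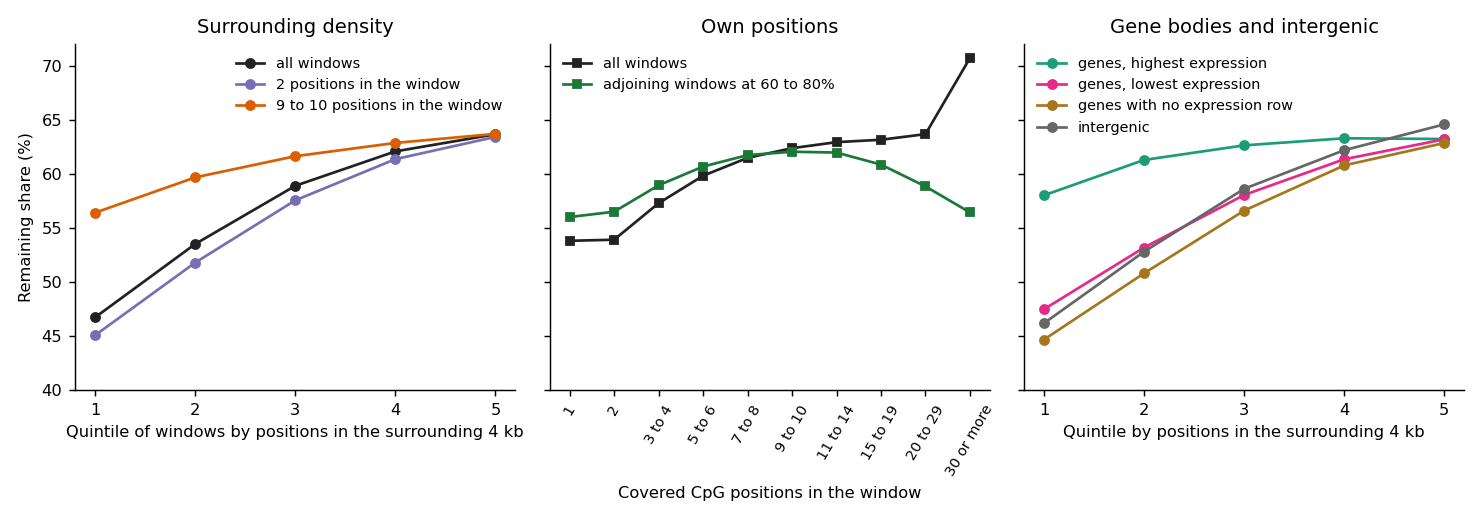
Remaining share (vertical axis, percent) by quintile of covered positions in the surrounding 4 kb for all windows and for windows with 2 or with 9 to 10 positions (left), by the positions of the window itself (middle), and by quintile for gene bodies by expression and for intergenic windows (right). The share climbs from 46.7% to 63.7% with the surroundings, and gene bodies of the most expressed genes are already at 58.0% in the sparsest quintile.

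By gene position, promoters went from 43.4% to 25.4%, gene bodies from 67.5% to 39.6% and intergenic windows from 68.9% to 37.9%. The remaining shares were 58.6%, 58.7% and 55.04%. Brought to the starting level and position count of all windows they were 57.4%, 58.5% and 55.5%. Within the intergenic windows the share fell with distance from the nearest gene. It was 58.0% within 10 kb, 57.2% at 10 to 50 kb, 53.2% at 50 to 200 kb, 48.5% at 200 to 500 kb and 46.6% beyond 500 kb. The Gjb2-35delG levels of the last 4 classes lay between 69.2% and 70.7%, while the Actin-RFP levels were 39.8%, 37.6%, 33.8% and 32.3%.

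Within quintiles of surrounding density most of the contrast between genes and intergenic DNA was gone. In the sparsest quintile gene bodies kept 47.9% and intergenic windows 46.2%, in the middle quintile 59.1% and 58.6%, and in the densest 63.4% and 64.6%, so the order was reversed there. Of the intergenic windows 28.7% lay in the sparsest quintile, compared with 11.9% of gene-body windows and 67.0% of windows over 500 kb from a gene. Those remote windows still kept less in the sparsest quintile, 42.6%. In the densest quintile, which held 2065 of them, they kept 77.8%.

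Around gene starts the profile kept its shape and shrank. Starts of protein-coding genes were split into tertiles by CpGs in the RefSeq promoter sequence, 0 to 6, 7 to 21 and 22 to 65 CpGs. In the 400 bp upstream of the start the CpG-poor tertile (5676 genes) went from 58.9% to 31.8%, the middle tertile (5429 genes) from 17.04% to 10.2% and the CpG-rich tertile (5352 genes) from 5.99% to 4.41%. At 10 to 20 kb upstream they were at 65.5% and 37.1%, at 61.0% and 36.4%, and at 61.8% and 37.2%. The shoulders of CpG-rich starts, 1000 to 2000 bp downstream, went from 38.3% to 22.3%, a remaining share of 58.3%.

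**Figure D4:**
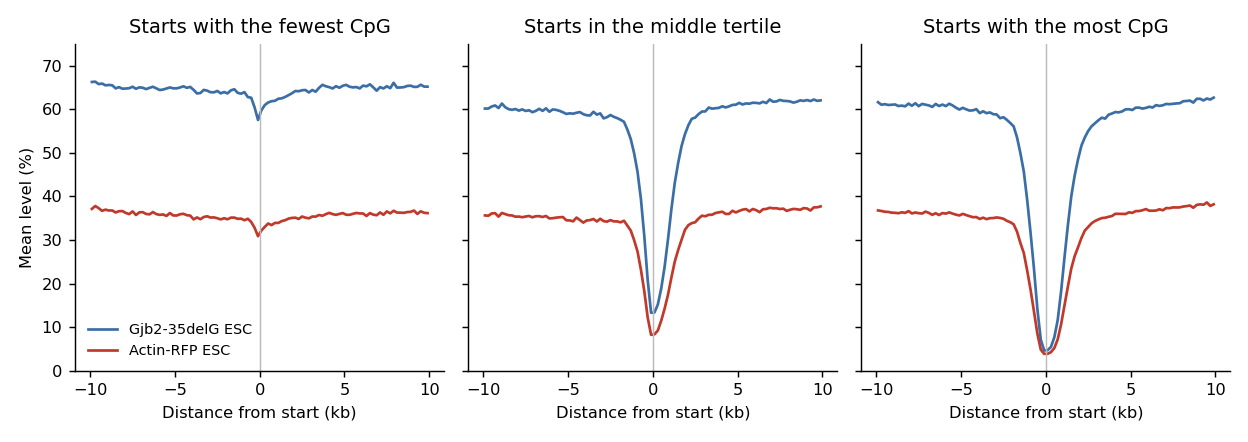
Mean methylation level (vertical axis, percent) against distance from the gene start (horizontal axis, kb; upstream negative) in the Gjb2-35delG and Actin-RFP libraries, for protein-coding starts in 3 tertiles of promoter CpG number. The red curve runs below the blue one at every distance, and they all but meet in the trough of CpG-rich starts, at 5.99% and 4.41% in the 400 bp upstream.

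Bodies of expressed genes kept more. Gene bodies of 13069 protein-coding genes were ranked by the mean deposited expression signal of the 55 RFP cells, which were taken from embryos and not from the culture. From the lowest to the highest quintile of expression the remaining share was 58.8%, 59.5%, 61.5%, 62.4% and 62.5%. The 6317 genes with no row in the expression table kept 55.1%. The gap between the most and the least expressed genes was wide in sparse surroundings and narrow in dense ones. In the sparsest quintile of surrounding density the most expressed genes kept 58.0% and the least expressed 47.5%, while genes with no row kept 44.7%. In the densest quintile the same groups kept 63.2%, 63.2% and 62.8%. By length, gene bodies kept 58.3% below 10 kb, between 60.2% and 61.0% from 10 to 300 kb, and 55.5% above 300 kb.

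Counted per gene, 7332 of 31759 promoters had a level at least 30 points below that of Gjb2-35delG (23.1%), and 2 a level at least 30 points above it (0.0063%). For gene bodies the counts were 7781 of 31373 lower (24.8%) and 0 higher. The median promoter went from 39.8% to 18.5% and the median gene body from 66.3% to 38.1%. The count of promoters follows their starting level, since none of the 9031 promoters under 10% in Gjb2-35delG could lose 30 points, while 42.7% of those at 50% to 70% and 53.99% of those at 70% to 100% did. The 2 promoters that were higher were those of Eps8l1, an adaptor of growth factor signalling, at 29.7% and 66.2% (± 2.84 and 2.50, counting SE), and Elobl, at 17.8% and 63.5% (± 4.09 and 7.47). The Elobl promoter held 10 and 5 covered positions.

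Most promoters of pluripotency, housekeeping and developmental genes were low in both libraries and so differed by few points. A promoter that starts under 30% cannot fall by 30 points. The pluripotency promoters had a median difference of -1.33 points, with 1 of 21 at least 30 points lower and 6 higher by any amount. That one was Esrrb, read at its outermost annotated start, with counting SEs of 3.19 and 2.88 points. Housekeeping promoters had a median difference of -1.48 points with 0 of 17 at least 30 points lower. The 23 promoters of developmental regulators had -3.16 points with 2 at least 30 points lower, and the 38 Hox promoters -2.95 points with 0. Promoters of formative genes, of the state that follows naive pluripotency, had -3.01 points with 0 of 12. Dnmt3b, at 33.2% ± 2.47 and 7.37% ± 0.966, and Fgf8, at 27.9% ± 2.41 and 9.28% ± 1.07, stood out in that list.

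The genes of the methylation machinery had a promoter median difference of -2.89 points over 15 genes, none at least 30 points lower. Tet1 was at 4.93% and 3.28%, Uhrf1 at 6.48% and 3.59%, and Dnmt3a at 8.10% and 2.16%. Dnmt3l, the cofactor of the de novo enzymes, was at 67.4% and 44.1%. Dnmt1 was at 88.0% and 65.4% at the start used here. The bodies of these genes had a median difference of -21.03 points, and those of Dnmt3a, Dnmt3b and Dnmt1 ended at 38.9%, 40.8% and 38.1%.

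Methylation keeps many germline promoters off in the soma. All 20 germline promoters listed were lower in Actin-RFP, 9 by at least 30 points, and the median went from 55.6% to 25.2%, with a median remaining share of 49.4%. Of all promoters that started at 50% to 70%, 42.7% were at least 30 points lower and the median share was 54.6%, so the count of the list was close to that of promoters with a like start, and the difference in share was not tested. The range within the list was wide. Rpl10l kept 27.5% (56.0% ± 1.97 to 15.4% ± 1.16), Stk31, a testis kinase, 30.8% and Tdrkh, a factor of piRNA biogenesis, 31.6%. At the other end Tex101 kept 77.9% (72.4% ± 2.69 to 56.4% ± 2.33) and Slc25a31, a testis ADP/ATP carrier, 68.5%. Dazl kept 49.2% and Ddx4, the Vasa helicase, 37.5%.

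The totipotency-associated genes of the 2-cell stage started high and fell from a median of 69.8% to 37.8%, with 8 of 14 at least 30 points lower and a median share of 54.1%. These values are close to those of all promoters at 50% to 70% (42.7% at least 30 points lower, median share 54.6%) and at 70% to 100% (53.99% and 59.8%). Zscan4d, of a family expressed in 2-cell embryos, was at 65.4% ± 4.95 and 19.2% ± 4.12, and Duxf3, the Dux factor that activates that programme, at 76.7% ± 1.83 and 35.7% ± 2.04. These genes have near-identical copies, and the placement of reads shared between copies was not known here. Liver genes had a median difference of -28.6 points with 4 of 9 at least 30 points lower, among them Alb, serum albumin, at 72.8% and 40.3%. This was no more than in all promoters at 70% to 100%, with a median of -30.9 points and 53.99% at least 30 points lower. Trophectoderm promoters were mixed, since Cdx2 was low in both libraries (11.6% and 6.12%) while Elf5, a trophoblast factor silenced by methylation in ESCs, went from 81.2% ± 2.43 to 46.98% ± 2.50. In all, 3 of 13 trophectoderm promoters were at least 30 points lower, close to the 23.1% of all promoters.

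Imprinted promoters went from a median of 41.2% to 20.1% over 24 genes, 22 of them lower and 4 by at least 30 points. Imprinting control regions are methylated on a single parental copy, so their usual level is intermediate, and some of these promoters lie within one. Nnat went from 41.9% ± 1.40 to 8.77% ± 0.723 and Mcts2, an imprinted retrogene, from 53.4% ± 1.51 to 11.2% ± 0.990. Grb10 went from 22.5% to 6.62% and Igf2r from 36.8% to 11.99%. Inpp5f, at 65.5% and 23.6%, and Airn, at 76.3% and 26.4%, were the other 2 with a difference of at least 30 points. Snurf, at the Prader-Willi imprinting centre, was at 39.6% ± 3.16 and 38.5% ± 3.29, and Peg3 at 27.4% ± 1.84 and 23.3% ± 1.47. Over the 20 members above 10% in Gjb2-35delG the median remaining share was 46.9%, with a range from 20.96% to 97.2%. Of all promoters at 30% to 50%, 6.23% were at least 30 points lower and the median share was 51.95%. Over all promoters 23.1% were at least 30 points lower, and the differences of the list from these values were not tested. Zdbf2 was higher in Actin-RFP by 7.47 points, from 2.53%, and Zfp777 was at 4.11% in Actin-RFP against 2.98%.

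Large clustered receptor families had the widest losses of the families listed. Olfactory receptor promoters went from a median of 69.5% to 31.2%, with all 997 lower and 756 at least 30 points lower, and kept a median of 45.4%. Vomeronasal receptor promoters, of the pheromone-sensing organ, went from 64.0% to 23.1%, with all 241 lower, 190 by at least 30 points, and a median share of 38.2%. Over all promoters 23.1% were at least 30 points lower. Of those that started at 70% to 100% it was 53.99%, with a median share of 59.8%. Olfactory promoter windows lay in the sparsest surroundings in 52.1% of cases and vomeronasal ones in 69.0%, compared with 5.03% over all promoters. Within that quintile olfactory promoters kept 42.5%, vomeronasal promoters 37.0% and all promoters 46.4%.

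Defensin promoters, of antimicrobial peptides, had a median difference of -34.0 points with 36 of 53 at least 30 points lower. Keratin-associated protein promoters had -32.3 points with 32 of 53, and Pramel promoters, of a family active in the early embryo and germline, -32.9 points with 19 of 29. These 3 families started at medians of 72.7%, 75.7% and 66.4%. Of all promoters at 50% to 70%, 42.7% were at least 30 points lower, with a median difference of -28.4 points. At 70% to 100% it was 53.99%, with -30.9 points, and the differences of the families from these values were not tested. Zinc finger (Zfp) genes differed by region. Their promoters were low and had a median difference of -3.56 points with 13 of 351 at least 30 points lower, while their bodies kept a median of 59.3%. Bodies of 57 entries of clustered protocadherins, cell adhesion molecules of neurons, went from a median of 42.03% to 18.4% and kept a median of 46.6%. Entries of a cluster can overlap, since Pcdha1 alone spans chr18:36930285-37187657, so these bodies need not be separate regions.

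Bodies of very long neural genes had large losses. In 14 of 16 the body was at least 30 points lower (24.8% of all bodies were), and the median went from 69.6% to 32.7%, a share of 46.9%. Gene bodies above 300 kb, pooled over their windows, had a difference of -31.4 points and a share of 55.5%. The difference of the list from long genes at large was not tested. Dpp10, a potassium channel subunit, went from 68.5% to 28.6%, Csmd3 from 66.4% to 27.2% and Cntnap2, a neurexin family member, from 66.1% to 28.6%, with Dpp10 at a counting SE of 0.165 and 0.162. The 2 that were not 30 points lower kept more. Grin2b, an NMDA receptor subunit, went from 74.4% to 45.9% and Cdh13, a cadherin, from 74.4% to 49.1%. Their Gjb2-35delG levels were the highest of the list.

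To find single genes that departed most, 4903 promoters with at least 10 covered positions and at least 50% in Gjb2-35delG were ranked by remaining share, with a median share of 56.0% and a range from 32.8% to 74.9% between the 5th and 95th percentiles. The 12 named with the highest share were Sult2a4, Cyp2c69, Klk11, Cyp2j5, Rubie, Samsn1, Pla2g12a, H2-T24, Supt4b, Ccl28, Adgrg3 and Gbp9. Their shares ran from 91.0% to 98.4%, and they include liver enzymes and immune genes. Sult2a4, a sulfotransferase (chr7:13909677-13989591), was at 70.9% ± 2.697 and 69.8% ± 2.34, and Cyp2c69, a cytochrome P450, at 78.8% ± 3.41 and 77.3% ± 3.22. In MEF these promoters were at 87.5% and 85.7%. The differences of these 2 were smaller than their counting errors of 3.57 and 4.69 points.

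The 12 named with the lowest share were Pcdha1, Klra6, Olfr1228, Pate11, Serpini2, Olfr1484, Olfr866, Tas2r113, Vmn2r107, Mthfsl, Prl7b1 and Aadacl2fm2. Their shares ran from 7.13% to 19.1%, and they include olfactory, vomeronasal and taste receptors. Pcdha1, of the protocadherin alpha cluster, went from 50.4% ± 2.09 to 3.59% ± 0.729, with 73 and 78 covered positions. Mthfsl went from 69.1% ± 2.26 to 12.8% ± 1.77, with 35 and 37 positions. Klra6, a receptor of natural killer cells, went from 56.1% ± 4.80 to 6.01% ± 4.06 over 12 and 10 positions. Pcdha1 and Prl7b1 have no strand in the tables used here, so their start was taken as the gene end with more CpG positions. Ranking picks extremes of noise as well as of level, and the counting errors of these 12 shares ran up to 7.30 points.

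Among 12453 gene bodies with at least 100 positions, ranked in the same way, the median share was 60.9%. The highest were Srrm2, Psmg4, Haus4, H2-T24, Mrgprf, Htd2, Tmem18 and Mapk3, between 79.5% and 85.0%. Srrm2, a splicing factor (chr17:23790527-23824741), went from 52.8% ± 0.522 to 44.9% ± 0.551 and Mapk3, the kinase ERK1, from 64.0% to 50.9%. Psmg4, a proteasome assembly chaperone, was high in both, at 86.0% ± 0.818 and 72.5% ± 0.922. The lowest were Nefm, Helt, Vmn2r124, Vmn2r101, Sult2a7, Lrrc2, Csn1s1 and Vmn2r72, between 19.6% and 32.9%. Nefm, the medium neurofilament chain (chr14:68119545-68125004), went from 53.8% ± 1.06 to 10.6% ± 0.636 over 207 and 271 positions. Helt, a transcription factor of GABAergic neurons (chr8:46292043-46294748), went from 52.4% ± 1.64 to 12.9% ± 0.971, while MEF was at 5.87%. Csn1s1, a milk casein, went from 64.7% to 21.2%.

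At Gjb2 itself, on chromosome 14 from 57098602 to 57104702 on the minus strand (GRCm38), the promoter was at 15.6% ± 1.23 in the Gjb2-35delG line and 9.36% ± 1.26 in the Actin-RFP line. The gene body was at 50.3% ± 1.01 and 32.5% ± 0.909, a remaining share of 64.7% ± 2.23. MEF was at 14.8% and 53.3%. Both regions lay within the range of the 22728 promoters and 30747 bodies above 10% in Gjb2-35delG. The 5th to 95th percentiles of remaining share of these were 31.5% to 79.8% and 42.2% to 70.6%.

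Along the chromosomes, all 2407 autosomal bins of 1 Mb were lower in Actin-RFP, by differences from -18.7 to -44.7 points. The remaining share of the bins had a median of 57.8%, a standard deviation of 6.13 points and a range from 32.8% to 69.0%. The median counting SE of a bin was 0.288 points. When each bin was split into odd and even windows, the shares of the 2 sets correlated with r = 0.992 across bins. The share also ran on from a bin to its neighbour, with r = 0.602 over 2386 pairs, and no longer did at 5 Mb, with r = 0.0791 over 2309 pairs. Bins are not replicates and all come from the same 2 libraries, so these are descriptions.

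The remaining share of a bin went with its density of covered CpG positions. Pearson's r across the 2407 bins was 0.768 and Spearman's rho 0.824, while with the number of protein-coding starts they were 0.315 and 0.480, and with the Gjb2-35delG level r was -0.139. From the sparsest to the densest quintile of bins the median share was 46.8%, 53.8%, 57.9%, 60.4% and 61.4%. The 275 bins without a protein-coding start had a median share of 47.8%, the 795 with 1 to 4 starts 55.004%, the 897 with 5 to 14 starts 59.8%, the 326 with 15 to 29 starts 60.04% and the 114 with 30 or more 59.2%. Bins without a protein-coding start thus had the lowest median share, and from 5 starts upward it changed little. Not all of them are gene deserts. They include a bin within Cdh13 that kept 66.9% and the 2 bins of the immunoglobulin heavy chain locus, which kept 32.8% and 33.6%.

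**Figure D5:**
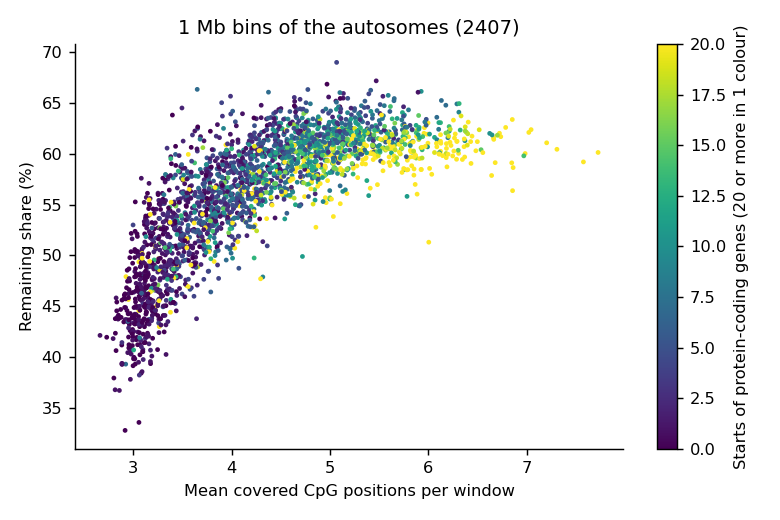
Remaining share (vertical axis, percent) against mean covered CpG positions per window (horizontal axis) for the 2407 autosomal bins of 1 Mb, each a point coloured by its number of protein-coding starts. The share climbs steeply up to about 4.5 positions and levels off near 61.4%, and the 2 lowest points are the bins of the immunoglobulin heavy chain locus.

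The lowest bins were gene-poor or held large receptor-like clusters. At chr12:114000001-115000000, with 88 entries of immunoglobulin heavy chain variable segments, the level went from 66.5% to 21.8%, a share of 32.8% ± 0.692. The adjoining bin, chr12:115000001-116000000, with 54 such entries, went from 62.7% to 21.1%, a share of 33.6%. MEF was at 66.4% and 66.6% there. The next were chr7:61000001-62000000 (36.7%), which holds 11 Mir344 microRNA genes, chr6:45000001-46000000 (36.8%) within Cntnap2, chr10:101000001-102000000 (37.8%) with Mgat4c, a glycosyltransferase, and chr15:70000001-71000000 (37.9%) with no protein-coding gene. In all 170 bins (7.06%) were below 45%. Reads from near-identical variable segments can be placed wrongly, and their handling was not known here.

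The highest bin, chr6:99000001-100000000, went from 70.1% to 48.4%, a share of 69.0% ± 0.245. It holds Foxp1, a forkhead repressor, Eif4e3, a cap-binding protein, and Prok2, a secreted prokineticin. It was followed by chr8:108000001-109000000 (67.2%) with Zfhx3, a homeobox factor, chr8:118000001-119000000 (66.9%) within Cdh13, and chr2:177000001-178000000 (66.3%) with the zinc finger genes Zfp972 and Zfp970. Next came chr14:77000001-78000000 (66.3%) with Enox1 and chr10:83000001-84000000 (66.3%) with Chst11, a chondroitin sulfotransferase. The bin of zinc finger genes was sparse, with a mean of 3.65 positions per window, where the other 5 had 4.78 to 5.47. Only 30 bins (1.25%) were above 65%. Whole chromosomes differed little, from 55.1% on chromosome 16 to 58.5% on chromosome 13.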

How the data were processed

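Bisulfite libraries of Gjb2-35delG ESCs, Actin-RFP ESCs and MEF were deposited as tables of 200 bp windows. The level is a fraction computed by the authors, which the values show to be the mean over the covered CpG positions of a window, and the deposited methylated and unmethylated calls and covered positions are counts. The build is mm10 per the submitters' processing notes; the bisulfite aligner and caller: not given in the sources used here. Autosomal calls totalled 283463589 in Gjb2-35delG, 313745475 in Actin-RFP and 308101992 in MEF. The deposited expression signal, scaled per cell by the authors, was averaged over 55 RFP cells, and 40 columns of other cells were not used.

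Windows were joined and summarised with Python 3.11.15, numpy 2.4.6 and pandas 2.3.3, and plotted with matplotlib 3.10.9. Counting errors treat calls as independent, which PCR copies are not. A covered position is a cytosine of 1 strand, as a check of 16599 windows within RefSeq promoter sequences showed. Gene positions came from RefSeq (GRCm38.p6). For 27025 of 34614 genes the start of a gene was the outermost one on its strand. Otherwise it was the gene end with more positions, which applies to all of chromosome 18. Besides those flagged in the text, the named genes this concerns include Dppa5a, H2-T24, Supt4b, Gbp9, Nefm, Mapk3, Mrgprf and Sult2a7. Members of the lists needed at least 5 positions. Ranked genes (12 promoters and 8 bodies a side) left out predicted genes and genes within 1 Mb of one already named, and 6 bins a side were named. Members and lists were chosen with earlier results of these data known. The scripts were tested on simulated data. Alternatives varied the minimum of calls, the source of the starting level, promoter, bin and threshold sizes, and standardisation.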

Additional observations from a re-analysis of the deposited data

How the results depend on the processing

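No paired analysis was possible because there was 1 library per line and leaving one out leaves no comparison. Values are remaining shares unless said otherwise. For windows at 80% to 100% in Gjb2-35delG the share was 58.1%, and it was 58.3% with calls pooled per window, 61.4% with at least 20 calls, 62.3% binned by adjoining windows and 59.8% by MEF. At 20% to 40% it was 58.0%, and 57.7%, 56.5%, 55.4% and 50.1% in the same order. The gap between these 2 classes thus depends on how the start is measured.

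With 1 position the share was 53.8% over 328520 windows, and 56.0% where adjoining windows were at 60% to 80%. It was 59.4% with at least 20 calls, which only 1342 of these windows had. With 10 or more positions it was 62.7%, 61.8% in that band and 62.5% with equal counts. Promoters gave 59.6% with at least 20 calls, 57.4% standardised and 58.8% with 2000 bp upstream to 1000 bp downstream. Gene bodies gave 60.1% with at least 20 calls and 58.5% standardised, intergenic windows 57.4% and 55.5%. Bodies of the most expressed genes gave 62.8% with at least 20 calls, 62.6% ranked by share of cells and 62.7% by CPM.

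The SD over bins was 5.44 points with at least 20 calls, 4.28 for 5 Mb bins, 7.29 for 200 kb bins and 5.49 standardised. The mean difference was -27.6 points with at least 20 calls, -30.8 on chromosome X, -29.5 with equal position counts and -29.2 with at most 200 calls. The share of windows at least 30 points lower was 48.2% with pooled calls, 44.7% with at least 20 calls and 51.8% on chromosome X, with 70.02% at 20 points and 26.6% at 40 points. The share higher was 0.0167% with at least 20 calls and 0.597% on chromosome X, with 0.429% at 20 points and 0.0469% at 40 points. The median promoter difference of primitive endoderm genes was -14.2 points and -7.27 with 500 bp on either side of the start, and that of long neural genes -12.7 and -6.63. The alternatives of equal position counts, at most 200 calls, standardised bins and CPM were chosen after seeing the data. The windows gained by a lower minimum of calls have few calls, and the cause of each shift was not tested.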

Other observations

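Outside the autosomes, 233674 windows of chromosome X had a level in both libraries, with a median of 11 calls in Gjb2-35delG and 12 in Actin-RFP, against 27 and 29 on the autosomes. Their mean went from 68.0% to 37.2%, a remaining share of 54.7%. On chromosome Y 8301 windows, with a median of 10 and 16 calls, went from 66.6% to 27.2%, a remaining share of 40.9%. Both lines thus had calls on chromosome Y and fewer calls per window on X than on the autosomes. Windows of X also held fewer covered positions, with a mean of 2.77, and the sex of the lines was not tested further. Remote intergenic windows, over 500 kb from a gene, kept more than the rest in dense surroundings. In the densest quintile their 2065 windows started at 83.5% and kept 77.8%, a difference of -18.5 points, while all windows of that quintile started at 61.8% and kept 63.7%.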
